A study of Mus musculus with 6 samples.

Results

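The genes described here hold blood cells in the bone marrow or let them leave it. They are 9 of the 32285 genes in the count matrices, chosen by symbol: the chemokine receptors Cxcr4, Cxcr2 and Ccr2, the selectin ligand Selplg, the integrin subunits Itga4, Itgam and Itgb2, and the immunoglobulin-family proteins Vcam1 and Emb. All 9 symbols were found once. Their messenger RNA was measured in single cells of c-Kit+-enriched bone marrow from 9 female BALB/c mice, aged 10 weeks at harvest. The mice formed 3 groups of 3. Non-tumor-bearing (NTB) mice have no treatment recorded. Vehicle (Veh) mice carried orthotopic 4T1 tumors (a mouse mammary carcinoma line) in the mammary gland and were given vehicle. BRQ mice carried the same tumors and were given brequinar, an inhibitor of the pyrimidine synthesis enzyme DHODH, injected intraperitoneally in water at 10 mg/kg. Treatment lasted 2 weeks. The tumor-bearing groups therefore differed in the drug, while NTB mice lacked the tumor and have no injections recorded. Tumor and injections cannot be told apart in comparisons with them. Each of 3 pools held 1 mouse of each group, told apart by hashtag antibodies, and the mouse was the replicate (n = 3 per group). Cells were enriched with beads against c-Kit, a receptor of progenitor cells, so shares of cell types are shares of what the beads kept.

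Marrow stromal cells make the chemokine Cxcl12, which binds Cxcr4 and keeps progenitors and young neutrophils in place. Adhesion through the VLA-4 integrin, which contains Itga4 and binds Vcam1, acts in the same direction. As neutrophils mature, Cxcr4 gives way to Cxcr2, whose ligands draw them into the blood, whereas monocytes leave through Ccr2. Selplg, also called PSGL-1, lets leukocytes roll on selectins, and the pair of Itgam (CD11b) and Itgb2 (CD18) forms Mac-1, the integrin of firm adhesion in myeloid cells.

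Promoter sequences are shown for Cxcr4 and Itgam, whose levels fell and rose in the same comparisons in progenitors, and for Cxcr2, which rose with the tumor in neutrophil-stage cells. Each is the 250 bases before the RefSeq start site, on the strand of the gene (GRCm38.p6). The windows lie at chr1:128592300-128592549 (minus strand) for Cxcr4, at chr7:128062390-128062639 (plus strand) for Itgam and at chr1:74153744-74153993 (plus strand) for Cxcr2. Capitals mark matches on either strand to AGGAAG (ETS-type), TTNCNNAA (C/EBP-type), TGTGGT (RUNX-type) and GGGCGG (GC box).
Cxcr4: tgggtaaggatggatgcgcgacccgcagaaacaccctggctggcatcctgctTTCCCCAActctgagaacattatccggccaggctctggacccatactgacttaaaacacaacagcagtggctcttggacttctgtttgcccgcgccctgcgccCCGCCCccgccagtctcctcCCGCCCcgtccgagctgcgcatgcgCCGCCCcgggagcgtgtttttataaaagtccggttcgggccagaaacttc
Itgam: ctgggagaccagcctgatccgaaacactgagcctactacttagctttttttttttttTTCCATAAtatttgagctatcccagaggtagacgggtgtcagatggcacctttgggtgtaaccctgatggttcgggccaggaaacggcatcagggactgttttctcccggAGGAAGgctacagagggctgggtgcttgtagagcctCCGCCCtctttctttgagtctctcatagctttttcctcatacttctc
Cxcr2: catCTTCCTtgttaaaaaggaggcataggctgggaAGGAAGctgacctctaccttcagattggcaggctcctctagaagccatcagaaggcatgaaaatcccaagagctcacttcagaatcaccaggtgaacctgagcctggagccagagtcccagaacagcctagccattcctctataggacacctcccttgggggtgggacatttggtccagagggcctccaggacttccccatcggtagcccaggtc
The Cxcr4 window held 3 GC boxes and 1 C/EBP-type match. The Itgam window held 1 match each to the ETS-type, C/EBP-type and GC box letters, and the Cxcr2 window held 2 ETS-type matches. Of 32851 windows of the same length, 29.5% held an ETS-type match, 36.8% a C/EBP-type match, 14.0% a RUNX-type match and 32.7% a GC box, so each of these letters is common. A match is a run of letters and says nothing on binding.

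The comparisons were made in 5 classes of cells. Granulocyte-monocyte progenitors (GMPs) were taken by their Ms4a3, as barcodes in which ln(1 + its UMIs per 10000) exceeded 3. A UMI, or unique molecular identifier, marks 1 captured RNA molecule. Neutrophil-stage, monocyte-like and hematopoietic stem and multipotent progenitor-like (HSC/MPP-like) cells were the other cells of clusters whose markers named them so. A further cluster, led by Wfdc17, Il1b and Steap4, scored highest for the neutrophil markers. It had a median of only 1644 UMIs per barcode and no neutrophil marker among its 10 leading genes, so it stayed unnamed. It is called Il1b-led here. The 9 genes were kept out of the marker lists and of the genes used to cluster. Levels of marker lists are given as raw CPM, UMIs relative to all UMIs of the class. All 7 GMP markers had UMIs in GMPs and all 13 neutrophil markers in neutrophil-stage cells, as had all 9 monocyte and all 10 HSC/MPP markers in those classes. In Il1b-led cells all 13 neutrophil markers also had UMIs and summed to 200000 to 266000 raw CPM. The 6 stromal and endothelial markers summed to at most 0.667 raw CPM in GMPs and to 11.4 to 48.0 in HSC/MPP-like cells.

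Depth set how firmly each class could be read. The 3 pools held 100700982 to 135564079 gene UMIs, and 382 to 2780 hashtag singlets per mouse passed the filters. Hashtag calling left 33.1% to 52.19% of the barcodes negative. Between 38 and 48 barcodes were shared by a pair of pools, under 0.4% of the smaller pool of each pair. Veh mouse 2 (the mouse of pool 2) was the smallest library of its group, with 95 GMPs, 22 neutrophil-stage, 31 monocyte-like and 10 HSC/MPP-like cells. The NTB mice had 88, 135 and 177 GMPs against 95 to 1017 in Veh and 653 to 806 in BRQ mice. Only 8 Il1b-led cells came from NTB mouse 1.

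Across classes the 9 genes divided sharply, and each had its own order. Here levels are raw CPM, the UMIs of a gene scaled only to the total UMIs of the class in that mouse, given as the median with the lowest and highest mouse, over mice with at least 20 cells of the class. Because cells were clustered on their RNA, the order of classes is a description with no test.

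Cxcr4, the retention receptor, was the most even of the chemokine receptors. Its median was 148 in basophil/mast/eosinophil-like cells (109 to 195, 7 mice), 132 in monocyte-like cells (94.9 to 156, 9 mice), 128 in Il1b-led cells (99.5 to 190, 8 mice) and 123 in neutrophil-stage cells (80.7 to 146). It was 74.7 in GMPs (46.9 to 87.2) and 65.2 in HSC/MPP-like cells (52.7 to 84.1). Every neighbour in this order overlapped the next, except that erythroid/MEP-like cells stood lowest at 23.9 (12.9 to 35.8) and apart. Cxcr2, the receptor that draws neutrophils out, was the most uneven. Its median was 1730 in Il1b-led cells (1380 to 1870), where it was also among the 10 genes that led the cluster. Neutrophil-stage cells had 95.0 (35.1 to 280), which did not overlap the Il1b-led cells. GMPs had 8.1 (4.25 to 13.8), monocyte-like cells 9.43 (3.86 to 19.3) and HSC/MPP-like cells 18.1 (12.0 to 31.9), and these ranges overlapped. Ccr2, the exit receptor of monocytes, stood at 206 in monocyte-like cells (167 to 274), where it was among the 10 genes that led the cluster. Among the 9 classes compared, all others were at or under 17.6, the median of the cells in GMP-like clusters that did not pass the Ms4a3 limit. Outside these classes, Ccr2 was also among the 10 genes that led an unnamed cluster of 247 barcodes, with H2-Aa and Cd74. GMPs themselves had 3.43 (0.0 to 6.35) and neutrophil-stage cells 2.86 (0.0 to 6.18). The part of free RNA in the lowest of these levels was not tested.

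Selplg, the selectin ligand, was highest in Il1b-led cells at 724 (619 to 908), then in monocyte-like cells at 171 (147 to 205), and neither range met its neighbour. Neutrophil-stage cells had 41.2 (31.6 to 90.1) and GMPs had the lowest median of the 9 classes, 31.9 (23.0 to 44.6). Itga4, the alpha subunit of VLA-4, was 187 in HSC/MPP-like cells (164 to 216), 96.5 in GMPs (78.1 to 104) and 47.1 in neutrophil-stage cells (30.4 to 57.8), and none of these 3 ranges overlapped. The highest median was 256 in basophil/mast/eosinophil-like cells (224 to 415). Il1b-led cells, at 234 (149 to 277), and erythroid/MEP-like cells, at 222 (165 to 257), overlapped the HSC/MPP-like cells.

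Itgam and Itgb2, the Mac-1 subunits, shared an order at the top. Itgam was 454 in Il1b-led cells (354 to 651) and 409 in neutrophil-stage cells (346 to 476), which overlapped, and then 69.9 in GMPs (39.7 to 95.7). It was 14.3 in monocyte-like cells (3.51 to 20.4). Itgb2 was 384 in Il1b-led cells (355 to 519), 286 in neutrophil-stage cells (224 to 336) and 43.1 in GMPs (34.7 to 64.4), with no overlap among these 3 classes. Vcam1, the ligand of VLA-4, is best known on endothelial and stromal cells and on macrophages. Macrophage-like and stromal/endothelial-like cells were too few for a level, with at least 20 cells in 3 mice and in 0 mice. Among the 9 classes compared its median was highest in GMPs, at 170 with a wide range (58.5 to 278), and overlapped that of Ms4a3-low cells of the same clusters, at 105 (32.6 to 249). Neutrophil-stage cells had 48.7 (30.5 to 83.1), and monocyte-like cells had 6.45 (2.97 to 12.3). Emb, embigin, is a membrane glycoprotein that escorts monocarboxylate transporters to the cell surface. It ran the other way, with 506 in monocyte-like cells (455 to 638), 430 in Il1b-led cells (331 to 573), 168 in HSC/MPP-like cells (125 to 227), 17.5 in GMPs (9.67 to 46.3) and 17.2 in neutrophil-stage cells (0.0 to 92.9).

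**Figure D1:**
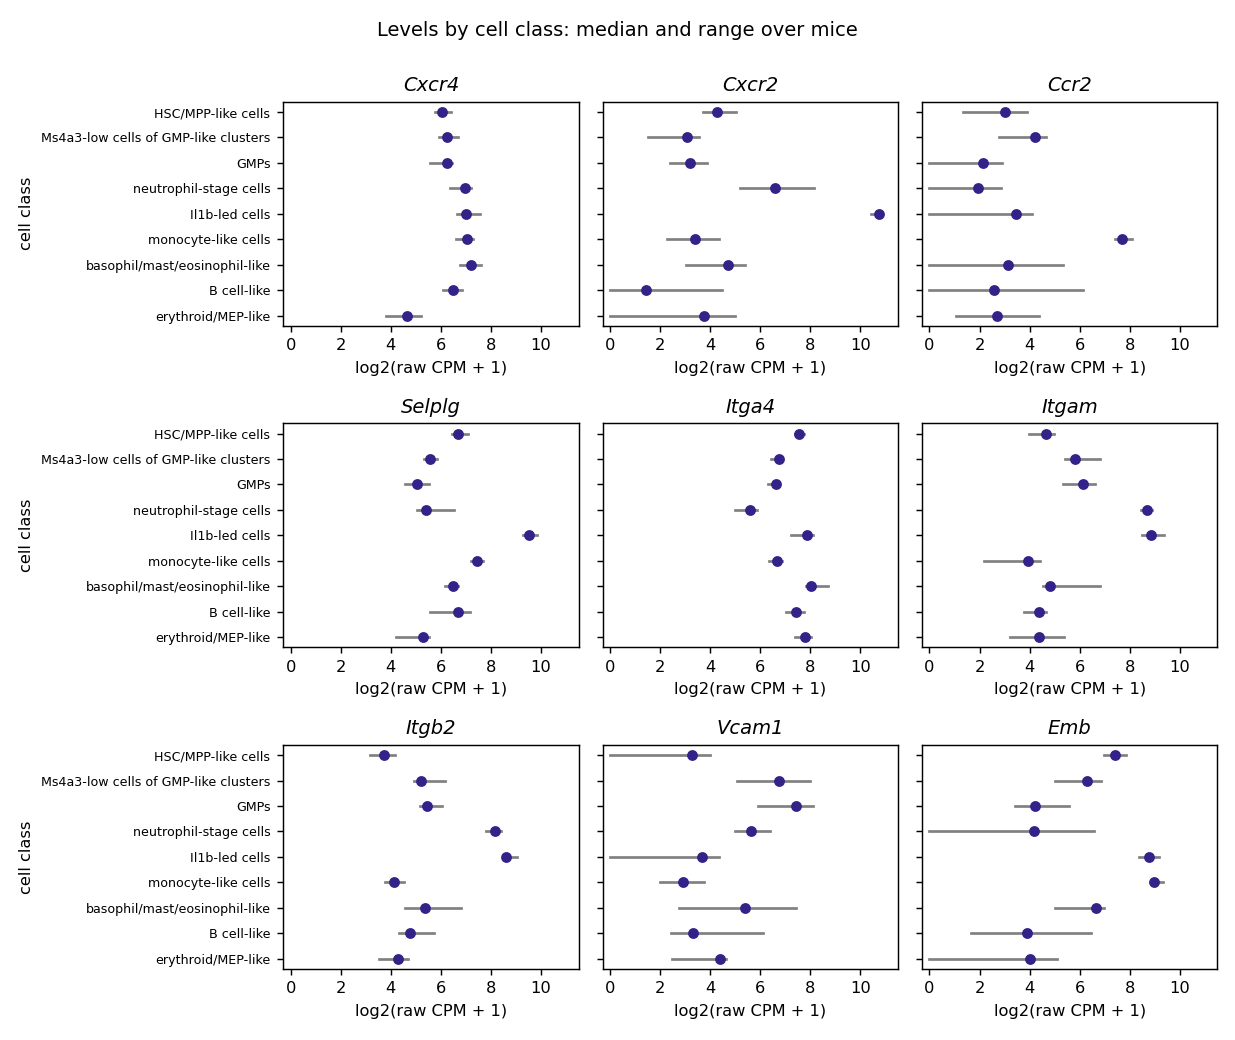
Level of each of the 9 genes in 9 cell classes, as log2(raw CPM in the class + 1) on the horizontal axis; points are medians over 6 to 9 mice with at least 20 cells of the class, and bars run from the lowest to the highest mouse. Cxcr2 and Selplg stand highest in Il1b-led cells, Ccr2 in monocyte-like cells, and Vcam1 in GMPs, while Cxcr4 varies least among the chemokine receptors.

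The genes whose class medians lay closest to each member were found by Pearson's r on log2(median + 1) over the 9 classes, among 8364 genes. With 9 points drawn from the same libraries, many genes reach a high r, and no p is given. Cxcr2 lay closest to Synj1 (r = 0.99), Cstdc4 (0.989) and Osbpl2 (0.987). Itgam lay closest to Actn1 (0.987), Triobp (0.986) and Nck1 (0.978), and Itgb2 to Mcemp1 (0.979) and Lrg1 (0.976). Ccr2 lay closest to Ifi202b (0.96), C1galt1c1 (0.932) and Ms4a4c (0.926). Vcam1 followed 1700123O20Rik (0.966), Mtf1 (0.965) and Prom1 (0.942), and Selplg followed Psme2b (0.977), Acbd5 (0.975) and Sgpl1 (0.974). For Itga4 the 3 genes were Akap8l (0.977), Hnrnph2 (0.964) and Fxr2 (0.936). For Emb they were Sgk3 (0.932), Glipr1 (0.929) and Usp3 (0.927), and for Cxcr4 Plekhg3 (0.907), Pcsk7 (0.885) and Fam107b (0.875).

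The GMP class was itself mixed, which bears on the comparisons that follow. Most GMPs fell in clusters 0, 3 and 4. Cluster 3, led by Fcnb and Lipg, had a median of 146 raw CPM of Itgam (118 to 217) and 105 of Itgb2 (78.7 to 136), against 43.8 (21.7 to 67.5) and 32.5 (27.3 to 42.6) in cluster 0 and 20.4 (10.8 to 31.0) and 11.9 (6.3 to 15.3) in cluster 4. Vcam1 had the same order, at 311 (85.5 to 377), 184 (64.1 to 251) and 20.3 (13.4 to 45.4) in clusters 3, 0 and 4. Emb ran opposite, at 6.75 (1.64 to 19.6), 14.6 (13 to 35.7) and 126 (94.2 to 148), and Ccr2 reached 25.7 (14.9 to 43.7) in cluster 4 against 3.44 (0.0 to 5.23) in cluster 0. Cxcr4 and Itga4 differed less, with overlapping ranges in the 3 clusters. Cluster 3 held 23.86% to 31.11% of the GMPs of NTB mice, 11.42% to 16.52% of those of Veh mice and 18.22% to 24.07% of those of BRQ mice. Cluster 4 held 1.48% to 3.39%, 6.32% to 9.24% and 11.04% to 22.97%. Cluster 9, in which Scrublet marked 73.44% of barcodes as doublets, held 2.82% to 3.7%, 2.95% to 9.47% and 2.11% to 5.21%. There Cxcr2 had a median of 98.7 raw CPM (61.6 to 144), against 3.74 (0.754 to 6.74) in cluster 0, and Emb had 104 (64.8 to 147). The part of cluster 9 in the GMP levels was not tested.

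The first comparison in GMPs asked what came with the tumor. Of the 9 genes 3 fell in Veh-GMPs against NTB-GMPs and none rose, while edgeR called 11.3% of the 10331 genes tested. The 3 that fell were Cxcr4, Itgam and Itgb2. From here on levels per mouse are CPM after TMM scaling, which also adjusts the totals between mice, listed in the order of pools 1, 2 and 3. With the pool as a replicate block 6 of the 9 were called, beside 16.4% of all genes. The median log2 fold change of the 9 genes was -0.23, against -0.01 over all genes tested.

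Cxcr4 (chromosome 1, 128588199 to 128592293) was at 94.8, 79.7 and 81.4 CPM in NTB-GMPs, at 54.8, 48.9 and 58.0 in Veh-GMPs and at 72.6, 68.9 and 64.8 in BRQ-GMPs. NTB mice were highest, BRQ mice intermediate and Veh mice lowest, with no overlap between any of the groups. It fell by 0.62 on the log2 scale in vehicle (SE 0.11, edgeR adjusted p = 0.000719), lower in 3 of 3 pools. With BRQ it rose by 0.33 (SE 0.09, edgeR adjusted p = 0.0176), higher in 3 of 3 pools, and its difference from NTB-GMPs was -0.29 (SE 0.10, edgeR adjusted p = 0.0933). With the pool as a replicate block that difference was called (-0.30, edgeR adjusted p = 0.035). In cluster 0 alone the fall with the tumor stood at -0.48 (edgeR adjusted p = 0.028). The rise with BRQ was 0.25 there (edgeR adjusted p = 0.108). Over all cells of cluster 0 Cxcr4 was at 87.5, 84.0 and 95.7 raw CPM in NTB mice. Veh mice had 51.9, 57.0 and 62.1 there and BRQ mice 75.5, 76.0 and 78.5, with no overlap. In the whole GMP class the rise with BRQ was not called without BRQ mouse 1 (0.29, adjusted p = 0.0891), Veh mouse 1 (0.33, adjusted p = 0.0898) or Veh mouse 2 (0.29, adjusted p = 0.0713). Nor was it called with all cells of the GMP-like clusters (0.22, adjusted p = 0.0737) or with an Ms4a3 limit of 2.5 (0.23, adjusted p = 0.0599). The 9 basophil/mast/eosinophil markers summed to 121 to 178 raw CPM in NTB-GMPs, 85.5 to 112 in Veh-GMPs and 183 to 199 in BRQ-GMPs, and their part in Cxcr4 was not tested.

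Cxcr2 (chromosome 1, 74153989 to 74161246) was sparse in GMPs, at 7.63, 4.39 and 9.15 CPM in NTB, 4.97, 8.77 and 7.38 in Veh and 7.74, 8.56 and 11.9 in BRQ mice. The groups overlapped and no comparison was called. Its log2 fold change with BRQ was 0.63 (SE 0.22, edgeR adjusted p = 0.0648), and 0.57 (adjusted p = 0.0327) with the pool as a replicate block. Ccr2 (chromosome 9, 124101950 to 124113557) was sparser still, with 6 UMIs in all NTB-GMPs, 124 in Veh-GMPs and 149 in BRQ-GMPs. At 2.18, 0.0 and 1.93 CPM in NTB, 6.85, 1.25 and 3.88 in Veh and 3.28, 5.74 and 4.78 in BRQ mice, its log2 fold change between Veh-GMPs and NTB-GMPs was 1.99 (SE 0.65, edgeR adjusted p = 0.0502), and 1.96 (adjusted p = 0.0285) with the pool as a replicate block. The single mouse at 0 had no UMI among the 1645717 of its GMPs, which allows up to 1.82 raw CPM by counting error alone. Over all cells of cluster 0 Ccr2 was at 3.02, 5.23 and 3.9 raw CPM in NTB and 4.35, 0.0 and 2.89 in Veh mice, which overlapped. Apart from leaving out mice, alternatives gave log2 fold changes of 1.02 to 2.04 for Ccr2 between Veh-GMPs and NTB-GMPs.

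Selplg (chromosome 5, 113818536 to 113832644) stood at 25.1, 30.1 and 35.6 CPM in NTB-GMPs, 31.0, 33.2 and 27.2 in Veh-GMPs and 37.5, 39.2 and 38.7 in BRQ-GMPs. The BRQ mice lay above all other mice. The rise over vehicle was 0.35 on the log2 scale (SE 0.10, edgeR adjusted p = 0.0257), and against NTB the difference was 0.30 (SE 0.13, edgeR adjusted p = 0.206). The call was lost with DESeq2 (0.36, adjusted p = 0.0709), with hashtag calls from tag ratios (0.29, adjusted p = 0.0699) and without BRQ mouse 1 (0.37, adjusted p = 0.053), BRQ mouse 2 (0.34, adjusted p = 0.0652), Veh mouse 1 (0.40, adjusted p = 0.0801) or Veh mouse 3 (0.28, adjusted p = 0.144). In cluster 0 alone it was 0.46 (edgeR adjusted p = 0.0129). There Selplg was at 36.9, 37.8 and 34.9 raw CPM in NTB, 25.6, 26.0 and 28.2 in Veh and 40.7, 39.8 and 41.0 in BRQ mice, over all cells of the cluster.

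Itga4 (chromosome 2, 79255426 to 79333123) did not pass the test in any GMP comparison of the main fit. It was at 85.0, 103 and 103 CPM in NTB, 85.6, 86.5 and 94.5 in Veh and 92.1, 97.3 and 90.2 in BRQ mice, and all groups overlapped. The log2 fold change was -0.14 (SE 0.10) between vehicle and NTB and 0.07 (SE 0.08) between BRQ and vehicle. Apart from leaving out mice, vehicle against NTB ran from -0.24 to -0.10 over the alternatives and was called in an alternative run. Over all cells of cluster 3 NTB mice had 96.6, 102 and 104 raw CPM and Veh mice 69.4, 65.7 and 79.4. In cluster 4 these were 116, 135 and 120 against 93.4, 110 and 98.5, and in cluster 0 the groups overlapped.

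Itgam (chromosome 7, 128062640 to 128118491) had the clearest contrast between groups. NTB-GMPs had 85.0, 70.9 and 95.3 CPM, Veh-GMPs 44.1, 41.4 and 41.7, and BRQ-GMPs 70.5, 66.2 and 65.1. The Veh mice lay within 3 CPM of each other and below all others, and BRQ mice lay just under the lowest NTB mouse. Itgam fell by 0.97 on the log2 scale with the tumor (SE 0.11, edgeR adjusted p = 1.27e-05) and rose by 0.65 with BRQ (SE 0.10, edgeR adjusted p = 8.24e-05), each in 3 of 3 pools. BRQ-GMPs differed from NTB-GMPs by -0.33 (SE 0.11, edgeR adjusted p = 0.0689), a value called with the pool as a replicate block (-0.33, adjusted p = 0.0177). In cluster 0 alone the fall was -0.55 (edgeR adjusted p = 0.0593), over 1.5 times smaller and not called, while the rise with BRQ was 0.81 (edgeR adjusted p = 4.3e-05). BRQ against NTB turned direction there, at 0.26 (edgeR adjusted p = 0.472): over all cells of the cluster Itgam was at 43.7, 43.8 and 52.0 raw CPM in NTB and at 55.7, 60.3 and 67.5 in BRQ mice. With all cells of the GMP-like clusters the same comparison gave -0.66 (edgeR adjusted p = 0.000185). Over all cells of cluster 3 Itgam was at 190, 175 and 217 raw CPM in NTB mice, above every tumor-bearing mouse. Veh mice had 118, 136 and 125 there, and BRQ mice 151, 142 and 146.

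Itgb2 (chromosome 10, 77530252 to 77565708), the partner of Itgam, fell with the tumor and stayed low with BRQ. It was at 60.0, 66.5 and 55.4 CPM in NTB-GMPs, 37.5, 42 and 39.2 in Veh-GMPs and 44.4, 40.8 and 36.1 in BRQ-GMPs. All NTB mice lay above all tumor-bearing mice, whose groups overlapped. It fell by 0.64 on the log2 scale in vehicle (SE 0.13, edgeR adjusted p = 0.00191) and by 0.58 in BRQ mice against NTB (SE 0.12, edgeR adjusted p = 0.00443), and between the tumor-bearing groups the difference was 0.06 (SE 0.10). In cluster 0 alone the differences were -0.24 (edgeR adjusted p = 0.457) and -0.27 (edgeR adjusted p = 0.461), neither called. Over all cells of cluster 3 Itgb2 was at 124, 122 and 136 raw CPM in NTB mice, above every tumor-bearing mouse. Veh mice had 99.8, 97.3 and 91.1 there, and BRQ mice 105, 109 and 78.7. The call against NTB in BRQ mice was also lost without NTB mouse 2 (-0.49, adjusted p = 0.069). Beside these integrin results, the 13 neutrophil markers summed to 48700 to 52100 raw CPM in NTB-GMPs, 35500 to 39100 in Veh-GMPs and 28400 to 40000 in BRQ-GMPs, and the share of cluster 3, high in Itgam and Itgb2, had the ranges given above.

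Vcam1 (chromosome 3, 116109949 to 116129688) stood at 302, 277 and 271 CPM in NTB-GMPs, at 179, 177 and 160 in Veh-GMPs and at 140, 179 and 50.8 in BRQ-GMPs. All NTB mice lay above all tumor-bearing mice, and BRQ mouse 3 lay far below the rest. BRQ-GMPs fell by 1.20 on the log2 scale against NTB-GMPs (SE 0.25, edgeR adjusted p = 0.00432). Without BRQ mouse 3 the value was -0.81 (edgeR adjusted p = 3.8e-06), and DESeq2 gave -1.20 (adjusted p = 0.0762). For Veh-GMPs the difference was -0.71 (SE 0.25, edgeR adjusted p = 0.0669), and it was -0.73 (edgeR adjusted p = 1.05e-06) when BRQ mouse 3 was left out of the fit. With the pool as a replicate block it was -0.71 (edgeR adjusted p = 0.00128), and BRQ against vehicle gave -0.61 (adjusted p = 0.00194) against -0.49 (SE 0.23, adjusted p = 0.188) without the block. This difference between BRQ and Veh mice rested on BRQ mouse 3, without which it was -0.09 (edgeR adjusted p = 0.596), and without BRQ mouse 2 it was -0.85 (edgeR adjusted p = 0.0114). In pool 2 the BRQ mouse lay 2 CPM above the Veh mouse. In cluster 0 alone Vcam1 was at 217, 246 and 251 raw CPM in NTB, 184, 144 and 160 in Veh and 128, 193 and 64.1 in BRQ mice, so BRQ mouse 3 was lowest there as well. The fit in that cluster gave -1.09 for BRQ against NTB (edgeR adjusted p = 0.00788). The 8 macrophage markers, all with UMIs in GMPs, summed to 103 to 122 raw CPM in NTB, 75.2 to 93.9 in Veh and 110 to 116 in BRQ mice. Their part in Vcam1 was not tested.

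Emb (chromosome 13, 117208536 to 117274415) was at 10.9, 11.3 and 9.63 CPM in NTB-GMPs, at 19.2, 18.2 and 16.7 in Veh-GMPs and at 29.3, 20.1 and 40.2 in BRQ-GMPs. The 3 groups did not overlap, with NTB lowest and BRQ highest. Emb rose by 0.73 on the log2 scale with BRQ against vehicle (SE 0.17, edgeR adjusted p = 0.0066) and by 1.53 against NTB (SE 0.28, edgeR adjusted p = 0.00207), and vehicle against NTB gave 0.80 (SE 0.30, edgeR adjusted p = 0.0939), or 0.75 (adjusted p = 0.0322) with the pool as a replicate block. Without BRQ mouse 3 the value with BRQ against vehicle was 0.46 (edgeR adjusted p = 0.0182), and with all cells of the GMP-like clusters it was 0.32 and not called (edgeR adjusted p = 0.14). The share of GMPs in cluster 4, where Emb was highest, ran 1.48% to 3.39%, 6.32% to 9.24% and 11.04% to 22.97% over the groups. In cluster 0 alone the differences were 0.61 (edgeR adjusted p = 0.102) against vehicle and 0.95 (edgeR adjusted p = 0.257) against NTB, and within cluster 4 itself Emb was at 94.2 to 148 raw CPM in NTB, 119 to 143 in Veh and 109 to 133 in BRQ mice, which overlapped. The 9 monocyte markers summed to 51.1 to 59.5 raw CPM in NTB-GMPs, 45.7 to 56.3 in Veh-GMPs and 87.4 to 140 in BRQ-GMPs, and the 10 HSC/MPP markers to 80.8 to 93.2, 87.7 to 134 and 117 to 194. Their part in Emb was not tested.

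**Figure D2:**
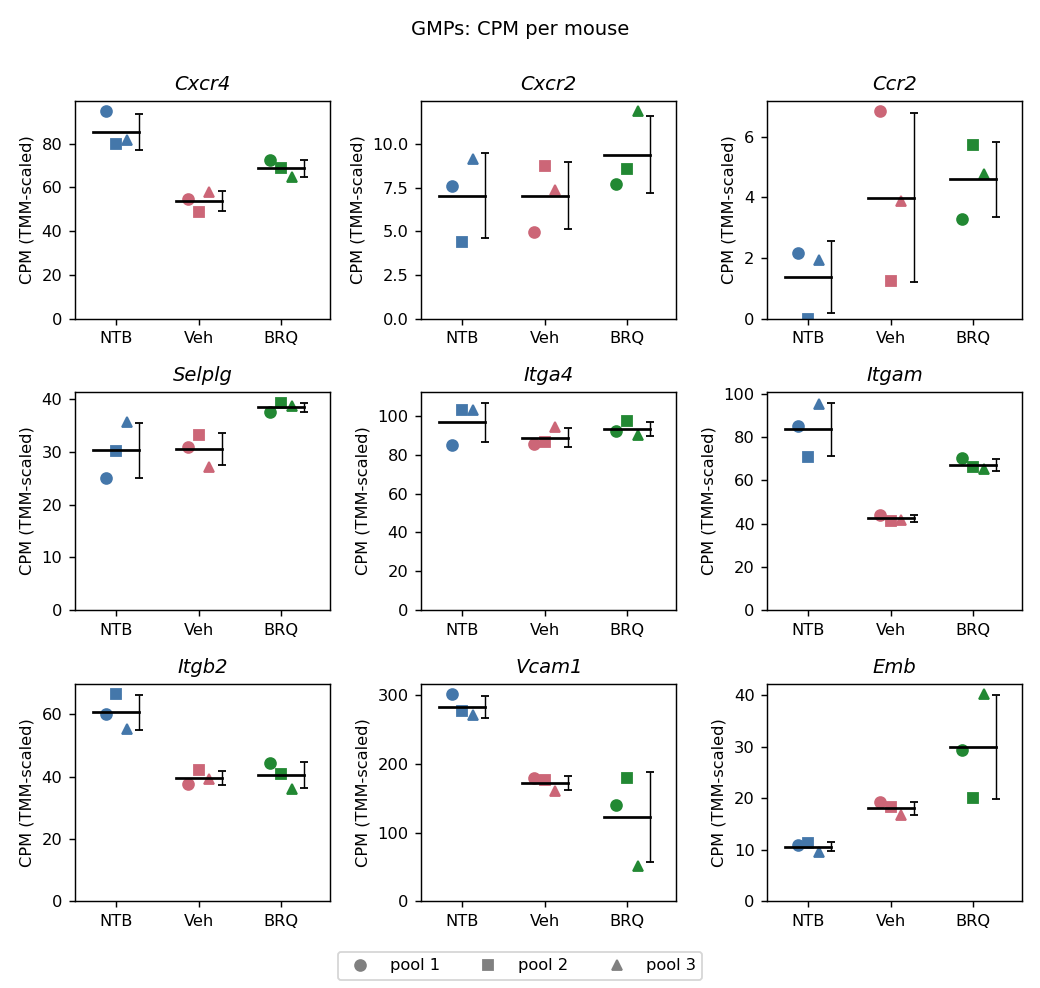
CPM of the 9 genes in the GMPs of each mouse, by group (NTB, Veh, BRQ) on the horizontal axis; symbols mark the pool, horizontal lines the mean and bars the SD of 3 mice. Itgam and Cxcr4 are lowest in the Veh mice, Itgb2 and Vcam1 are highest in the NTB mice, and Emb is lowest in NTB and highest in BRQ mice.

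The second comparison in GMPs asked what BRQ changed in tumor-bearing mice. Cxcr4, Selplg, Itgam and Emb rose, 4 of the 9 genes, and none fell, where edgeR called 13.4% of all genes tested. With the pool as a replicate block 6 were called, beside 20.4% of all genes, as Cxcr2 was then called higher and Vcam1 lower. Their median log2 fold change was 0.33, against 0.00 over all genes. BRQ-GMPs against NTB-GMPs gave 3 calls, Emb higher and Itgb2 and Vcam1 lower, with 6.01% of all genes called, and 5 calls, beside 11.8% of all genes, with the pool as a replicate block. None of the 9 genes was called in GMPs in any comparison when the limits on cells were read as UMIs, with at most 0.0632% of 3163 genes called. The 3 comparisons share mice, so their values are not independent of each other. Cell depth also differed: a GMP had a median of 10828.5 to 11581 UMIs in NTB mice, 14737 to 17966 in Veh mice and 12168.5 to 15795 in BRQ mice. Its part in the differences was not tested.

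A wider list of 78 further genes of adhesion and migration was read from the same fits, of which 57 were tested in GMPs. In Veh-GMPs against NTB-GMPs 9 of the 57 fell and none rose, beside 11.3% of all genes called, and the median log2 fold change of the list was -0.09 against -0.01 over all genes. They were 4 of 7 receptor signalling genes, 2 of 10 genes of selectins and selectin ligands and 1 of 6 integrins. The other 2 came from the 9 genes grouped as chemokine and attractant receptors, a group that included Kit, which is not a chemokine receptor. By the naming rule the largest were Kit, the receptor used for enrichment (72.5 CPM, SD 10.8, to 43.2, SD 3.03; fell by 0.73, SE 0.13, edgeR adjusted p = 0.000757), Rgs2, which dampens G-protein signalling (fell by 0.69, SE 0.14, edgeR adjusted p = 0.00239), and Cd44, a hyaluronan receptor (fell by 0.65, SE 0.13, edgeR adjusted p = 0.00247). With BRQ against vehicle 13 rose and 1 fell, beside 13.4% of all genes, with a list median of 0.135 against 0.001. Cd34, a progenitor sialomucin, rose by 0.97 (SE 0.21, edgeR adjusted p = 0.00308), Cd44 by 0.93 (SE 0.11, edgeR adjusted p = 2.74e-06), from 38.1 CPM (SD 5.95) to 75.3 (SD 8.81), and the chemokine Ccl9 by 0.78 (SE 0.10, edgeR adjusted p = 2.25e-05). Cd34 and Ccl9 were among the 10 genes that led cluster 4, whose share is given above. Against NTB 8 rose and 3 fell in BRQ-GMPs, beside 6.01% of all genes and a list median of -0.025 against -0.003, with Cd34 (1.19, SE 0.32, edgeR adjusted p = 0.0299) and Ccl9 (1.04, SE 0.14, edgeR adjusted p = 6.94e-05) higher and Ltb4r1, a leukotriene receptor, lower (-0.75, SE 0.18, edgeR adjusted p = 0.0125).

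In neutrophil-stage cells the egress receptor Cxcr2 had the largest fold changes of the 8 members tested in both comparisons with NTB, and a small one between BRQ and Veh mice. With the tumor Cxcr2 rose and Cxcr4 fell, 2 of the 8 genes tested, where edgeR called 1.85% of 8014 genes, and 4 were called with the pool as a replicate block, beside 3.28% of all genes. BRQ against vehicle gave none of the 8, with 0.187% of all genes called, 0 members at an unadjusted p under 0.05, and 0 members called by DESeq2. Against NTB the BRQ mice gave 3 calls, Cxcr2 and Emb higher and Vcam1 lower, with 4.13% of all genes called. Ccr2 did not pass the filter on low counts. NTB mice had 103, 404 and 933 of these cells, Veh mice 174, 22 and 56, and BRQ mice 253, 210 and 98.

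Cxcr2 stood at 37.4, 51.8 and 34.8 CPM in NTB, at 96.8, 112 and 200 in vehicle and at 92.3, 99.3 and 255 in BRQ mice. Every tumor-bearing mouse lay above every NTB mouse, and the mice of pool 3 were highest in both tumor-bearing groups. The rise was 1.66 on the log2 scale in vehicle (SE 0.31, edgeR adjusted p = 0.00194) and 1.74 in BRQ mice (SE 0.27, edgeR adjusted p = 0.000205), and between these groups the difference was 0.08 (SE 0.29). The class held cluster 1, led by Camp, Chil3 and Ngp, and cluster 7, led by Ifitm6 and Ly6g. Cluster 7 had 327 raw CPM of Cxcr2 (168 to 440) against 37.2 (18.7 to 93.1) in cluster 1. It held 15.53% to 24.01% of the class in NTB, 22.73% to 44.64% in vehicle and 34.29% to 66.33% in BRQ mice, with the highest share in the 2 mice highest in Cxcr2. In cluster 1 alone the rise was 1.12 with the tumor (edgeR adjusted p = 0.00587) and 1.29 for BRQ against NTB (edgeR adjusted p = 1.79e-05). In cluster 7 Cxcr2 was at 215, 201 and 168 raw CPM in NTB, 339, 555 and 406 in Veh and 243, 327 and 440 in BRQ mice, with 5 cells behind the value of Veh mouse 2 and 16 behind that of NTB mouse 1. In the class as a whole the 13 neutrophil markers summed to 383000 to 395000 raw CPM in NTB, 342000 to 370000 in Veh and 264000 to 315000 in BRQ mice, and the 7 GMP markers to 2980 to 6190, 7230 to 8400 and 6770 to 7150. Neither list overlapped between NTB and tumor-bearing mice. The 10 HSC/MPP markers summed to 28.1 to 66.5, 82.1 to 297 and 48.1 to 132, and the 9 basophil/mast/eosinophil markers to 94.9 to 121, 114 to 173 and 162 to 257. Of these lists 6 HSC/MPP and 6 basophil/mast/eosinophil markers had a median above 0. The part of these lists in the results of this class was not tested.

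Cxcr4 in neutrophil-stage cells was at 156, 144 and 140 CPM in NTB, 103, 99.8 and 87.5 in Veh and 115, 119 and 132 in BRQ mice. The order matched that in GMPs, with NTB highest, Veh lowest and no overlap. It fell by 0.57 on the log2 scale with the tumor (SE 0.15, edgeR adjusted p = 0.037), and with BRQ against vehicle the difference was 0.30 (SE 0.15, edgeR adjusted p = 0.589). The call was narrow: it was lost without any 1 of 8 of the 9 mice, all but BRQ mouse 3 (adjusted p 0.0524 to 0.175), and with DESeq2 (adjusted p = 0.0766). It was also lost in cluster 1 alone (-0.47, adjusted p = 0.0666), without Scrublet-marked cells (-0.52, adjusted p = 0.0548), with tag ratios (-0.63, adjusted p = 0.0598) and with the cell limits read as UMIs (-0.25, adjusted p = 0.685). Pool by pool Veh mice were lower in 3 of 3. BRQ against NTB gave -0.27 (SE 0.12, edgeR adjusted p = 0.236). Apart from leaving out mice, that difference ran from -0.44 to 0.06 over the alternatives and was called in an alternative run. Over all cells of cluster 1 Cxcr4 was at 147, 126 and 139 raw CPM in NTB and 104, 107 and 101 in BRQ mice, with no overlap.

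Vcam1 was at 88.6, 77.5 and 65.4 CPM in NTB, 42.2, 68.6 and 46.0 in Veh and 38.6, 47.2 and 27.8 in BRQ mice. BRQ mice lay below all NTB mice, and Veh mice overlapped both groups. Vcam1 fell by 0.91 on the log2 scale in BRQ mice against NTB (SE 0.17, edgeR adjusted p = 0.00132), and vehicle against NTB gave -0.69 (SE 0.21, edgeR adjusted p = 0.085), or -0.71 (adjusted p = 0.0403) with the pool as a replicate block. Cluster 1, with 58.8 raw CPM of Vcam1 (45.3 to 88.4) against 9.87 (4.18 to 22.1) in cluster 7, gave -0.62 for BRQ against NTB (edgeR adjusted p = 0.00397). With hashtag calls from tag ratios BRQ against NTB was -0.46 and not called (edgeR adjusted p = 0.226), while vehicle against NTB was -0.89 and called (edgeR adjusted p = 0.0182). With the cell limits read as UMIs BRQ against NTB was -0.74 (edgeR adjusted p = 0.156). Emb was at 9.98, 13.2 and 14.2 CPM in NTB, 29.9, 0.0 and 39.1 in Veh and 21.7, 16.6 and 84.7 in BRQ mice. Vehicle against NTB gave 1.12 (SE 0.46, edgeR adjusted p = 0.24), and 1.40 (adjusted p = 0.0274) with the pool as a replicate block. Its rise of 1.26 in BRQ mice against NTB (SE 0.36, edgeR adjusted p = 0.0444) rested on BRQ mouse 3, without which it was 0.54 (edgeR adjusted p = 0.26). Leaving out any 1 NTB mouse or Veh mouse 2 also ended the call (adjusted p 0.0516 to 0.16), and in cluster 1 alone it was 0.33 (edgeR adjusted p = 0.659). DESeq2 gave 1.72 (adjusted p = 0.419) and tag ratios 1.10 (edgeR adjusted p = 0.161), neither called. The 0 of Veh mouse 2 stood on 161828 UMIs, which allows up to 18.5 raw CPM.

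No other member was called in neutrophil-stage cells. Itgam was at 380, 436 and 439 CPM in NTB, 382, 349 and 456 in Veh and 367, 397 and 434 in BRQ mice, with overlap everywhere and log2 differences of -0.07 (SE 0.13) and -0.01 (SE 0.14) with tumor and with BRQ. Cluster 1 alone gave -0.38 for Itgam in BRQ mice against NTB (edgeR adjusted p = 0.0387), where the class as a whole gave -0.08. Itgb2 was at 238 to 294 in NTB, 249 to 292 in Veh and 278 to 306 in BRQ mice. Selplg was at 31.8 to 39.7, 39.1 to 56.1 and 40.0 to 82.2, and its difference between BRQ and NTB mice was 0.62 (SE 0.19, edgeR adjusted p = 0.0642), and 0.64 (adjusted p = 0.0365) with the pool as a replicate block. Itga4 was at 32.4 to 48.6, 43.7 to 56.1 and 50.9 to 56.0, with no call.

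**Figure D3:**
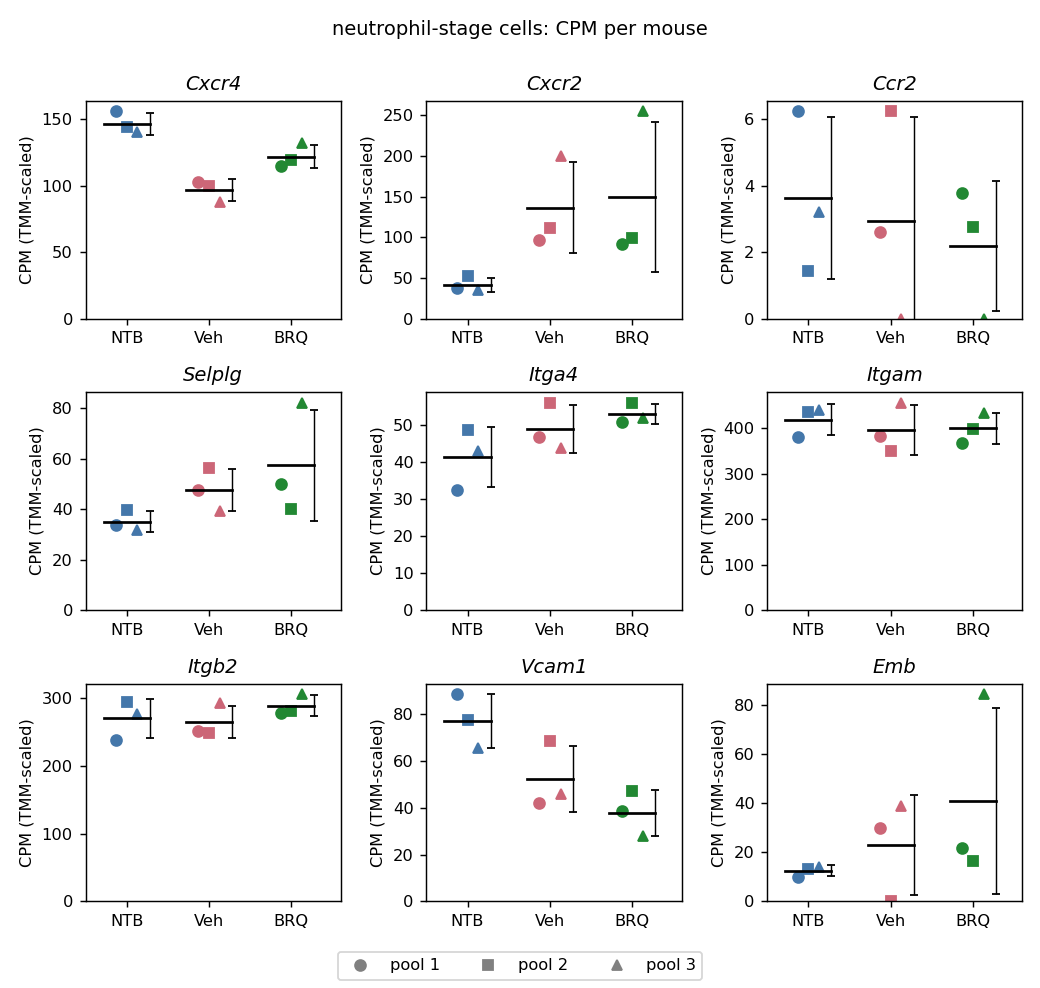
CPM of the 9 genes in the neutrophil-stage cells of each mouse, by group; symbols mark the pool, lines the mean and bars the SD of 3 mice. All 6 tumor-bearing mice lie above the NTB mice in Cxcr2, at 92.3 to 255 against 34.8 to 51.8, while Itgam and Itgb2 overlap in all groups.

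Of the 78 further genes 50 were tested in neutrophil-stage cells. Ccr1, a receptor for inflammatory chemokines, was the only one called with the tumor, beside 1.85% of all genes, from 25.7 CPM (SD 0.431) to 59.5 (SD 7.87), a rise of 1.26 on the log2 scale (SE 0.24, edgeR adjusted p = 0.00194). BRQ against vehicle called 0 of the 50, with 8 at an unadjusted p under 0.05. Against NTB 7 rose and 1 fell in BRQ mice, beside 4.13% of all genes: Ccr1 (1.29, SE 0.20, edgeR adjusted p = 0.0002), Fpr1, a receptor for bacterial formyl peptides (1.24, SE 0.33, edgeR adjusted p = 0.0298), and Adam8, a membrane protease (1.12, SE 0.23, edgeR adjusted p = 0.00317) changed most. Of these 8 genes, 3 were among 9 chemokine and attractant receptors tested and 2 among 5 proteases.

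Whether an effect differed between neutrophil-stage cells and GMPs was tested within mice, as the difference of the log2 fold changes. For vehicle against NTB it differed in 3 of the 9 genes, with 2.35% of 9364 genes called. Cxcr2 differed by 1.90 (SE 0.39, edgeR adjusted p = 0.00101), Itgam by 0.91 (SE 0.15, edgeR adjusted p = 3.52e-05) and Itgb2 by 0.61 (SE 0.16, edgeR adjusted p = 0.0201), each with the higher fold change in neutrophil-stage cells. For Cxcr4, which fell in both classes, the difference was 0.08 (SE 0.17, edgeR adjusted p = 0.93). For BRQ against vehicle Itgam alone differed, by -0.62 (SE 0.14, edgeR adjusted p = 0.00701), with 0.641% of all genes called. For BRQ against NTB Cxcr2 (1.46, SE 0.36, edgeR adjusted p = 0.00497) and Itgb2 (0.70, SE 0.15, edgeR adjusted p = 0.000607) differed, with 5.13% called. Cxcr2 was not called without NTB mouse 3 in either comparison (1.34, adjusted p = 0.385, and 0.90, adjusted p = 0.549). Itgb2 with the tumor lost its call when any 1 NTB mouse, Veh mouse 1 or Veh mouse 3 was left out (adjusted p 0.0664 to 0.218) and with no filter on low counts (0.46, adjusted p = 0.181). For BRQ against NTB the Itgb2 call was lost with tag ratios (0.49, adjusted p = 0.221), and Itgam with BRQ lost its call without BRQ mouse 1 or Veh mouse 3 (adjusted p = 0.204 and 0.193). Of the 57 further genes tested, 3, 3 and 7 differed in the 3 comparisons, beside the 2.35%, 0.641% and 5.13% of all genes.

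**Figure D4:**
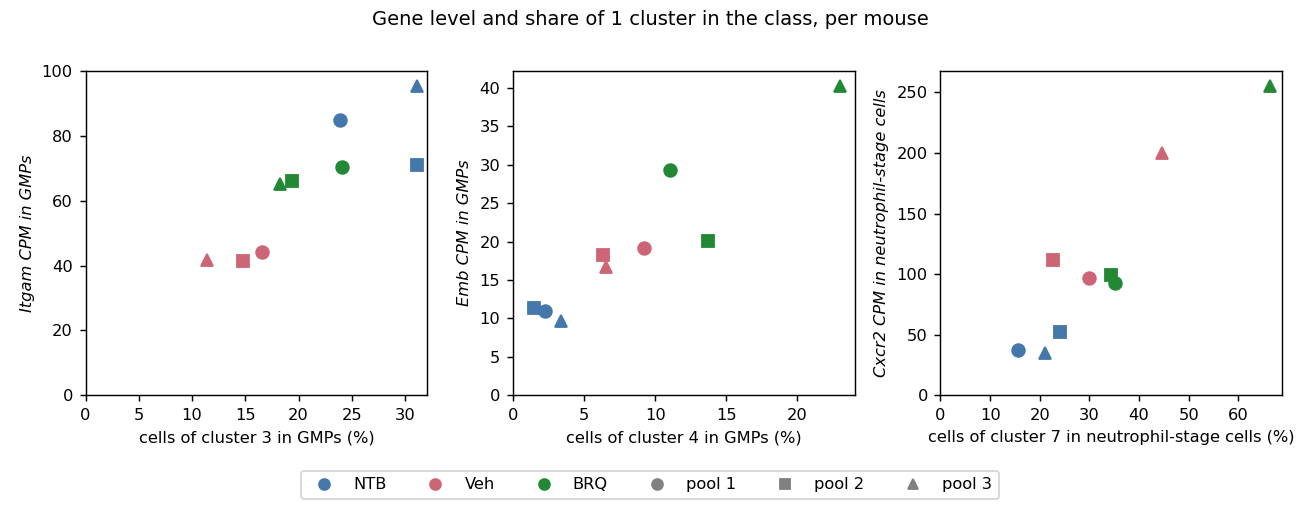
Level of 3 genes per mouse (CPM, vertical axis) against the share of the class in 1 cluster (percent, horizontal axis); colours mark the group and symbols the pool. Itgam in GMPs is lowest in the 3 Veh mice, where cluster 3 holds 11.42% to 16.52% of GMPs, Emb in GMPs is highest in the mouse with 22.97% of its GMPs in cluster 4, and Cxcr2 in neutrophil-stage cells is highest in the mouse with 66.33% of the class in cluster 7.

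In monocyte-like cells none of the 9 genes was called in any comparison, where edgeR called 3.61%, 6.1% and 3.17% of 9218 genes for vehicle against NTB, BRQ against vehicle and BRQ against NTB. At an unadjusted p under 0.05 there were 2, 2 and 1 members, and DESeq2 called 0 in each. Ccr2, the exit receptor of these cells, came nearest. It was at 178, 174 and 239 CPM in NTB, 288, 210 and 273 in Veh and 192, 201 and 233 in BRQ mice, and all groups overlapped. The difference was 0.41 with the tumor (SE 0.12, edgeR adjusted p = 0.0573) and -0.34 with BRQ (SE 0.11, edgeR adjusted p = 0.0572). With the pool as a replicate block both passed, at 0.40 (adjusted p = 0.0125) and -0.33 (adjusted p = 0.00933). In each pool the Veh mouse was higher than the other mice. Emb, at its highest in this class, was at 538, 497 and 453 CPM in NTB, 506, 489 and 515 in Veh and 549, 566 and 587 in BRQ mice, so that the BRQ mice lay above all others, and BRQ against vehicle gave 0.17 (SE 0.09, edgeR adjusted p = 0.306). Cxcr4 was at 101 to 155, 120 to 138 and 128 to 130 CPM, with a log2 difference of -0.09 (SE 0.12) with the tumor, and Selplg was at 179 to 211, 156 to 178 and 157 to 184. Itgb2 was low, at 18.7 to 20.8, 13.4 to 17.4 and 14.0 to 21.6.

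Of 56 further genes tested in monocyte-like cells, 1 rose and 4 fell with the tumor, 7 rose with BRQ against vehicle, and 4 rose and 1 fell for BRQ against NTB, beside 3.61%, 6.1% and 3.17% of all genes. Itga1, a collagen-binding integrin subunit, went from 73.9 CPM (SD 13.3) in NTB to 24.2 (SD 10.8) in vehicle and 45.8 (SD 8.55) in BRQ mice. It fell by 1.41 on the log2 scale with the tumor (SE 0.21, edgeR adjusted p = 0.000146), rose by 0.70 with BRQ (SE 0.18, edgeR adjusted p = 0.0176) and fell by 0.70 in BRQ mice against NTB (SE 0.17, edgeR adjusted p = 0.0177). In this class the 10 HSC/MPP markers summed to 82.6 to 174 raw CPM in NTB, 308 to 508 in Veh and 255 to 495 in BRQ mice, and the 9 basophil/mast/eosinophil markers to 36.5 to 53.9, 31.1 to 52.0 and 71.3 to 74.7. Their part in these results was not tested. With the tumor Itgb7 (-1.15, SE 0.29, edgeR adjusted p = 0.021) and Kit (-0.58, SE 0.15, edgeR adjusted p = 0.0255) fell too. With BRQ Rgs18, a regulator of G-protein signalling, rose by 0.74 (SE 0.11, edgeR adjusted p = 7.12e-05) and Kit by 0.55 (SE 0.12, edgeR adjusted p = 0.00591). Against NTB the other named genes were Ccl9 (0.93, SE 0.13, edgeR adjusted p = 3.53e-05) and Rgs2 (0.49, SE 0.13, edgeR adjusted p = 0.0282), both higher.

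HSC/MPP-like cells gave 1 call among the 9 genes, Ccr2 with the tumor, where 0.936% of 9720 genes were called. BRQ against vehicle and BRQ against NTB gave 0 members, with 0.0206% and 0.844% of genes called, 1 and 2 members at an unadjusted p under 0.05, and 0 by DESeq2. Ccr2 had 9, 35 and 34 UMIs in all in NTB, Veh and BRQ mice, at 1.63, 6.84 and 2.07 CPM, 14.3, 10.8 and 12.8 CPM and 6.25, 8.83 and 7.24 CPM. Veh mice lay above the rest. The log2 fold change was 2.05 (SE 0.54, edgeR adjusted p = 0.0458). It was lost with DESeq2 (2.01, adjusted p = 0.714), with hashtag calls from tag ratios (1.16, adjusted p = 0.317) and without any 1 mouse other than NTB mouse 2 and BRQ mouse 3 (adjusted p 0.0523 to 0.679). The value of Veh mouse 2 was a single UMI. Beside it the 9 dendritic cell markers summed to 181 to 195 raw CPM in NTB, 80.8 to 120 in Veh and 94.7 to 151 in BRQ mice, and the 12 erythroid/MEP markers to 266 to 338, 114 to 232 and 152 to 248. Of these lists 5 dendritic cell and 11 erythroid/MEP markers had a median above 0. Their part in Ccr2 was not tested. Cxcr4, which holds stem cells in the niche, was at 88.2, 67.0 and 66.1 CPM in NTB, 67.5, 75.9 and 64.2 in Veh and 54.4, 65 and 77.9 in BRQ mice, with overlap in all comparisons and a log2 difference of -0.10 (SE 0.18) with the tumor. Itga4 was at 181 to 221, 165 to 195 and 171 to 194 CPM, and Emb at 145 to 175, 126 to 220 and 174 to 223, neither called. Of 61 further genes only Kit was called, in BRQ mice against NTB and beside 0.844% of all genes (fell by 0.45, SE 0.11, edgeR adjusted p = 0.0329).

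The Il1b-led cells, which had the highest Cxcr2 and Selplg of all classes, were fitted on their own after the clusters had been seen. Of 7 members tested, none was called with the tumor and none for BRQ against NTB, where edgeR called 2.2% and 0.334% of 4186 genes. At an unadjusted p under 0.05 there were 1 and 0 members, and DESeq2 called 0 in each. Itgam rose with BRQ against vehicle, where 4.92% of genes were called. It was at 332, 448 and 638 CPM in NTB, 389, 412 and 425 in Veh and 542, 753 and 626 in BRQ mice, and all BRQ mice lay above all Veh mice. The rise was 0.64 on the log2 scale (SE 0.15, edgeR adjusted p = 0.00235), and without BRQ mouse 2 it was 0.53 (edgeR adjusted p = 0.0802) and with tag ratios 0.58 (edgeR adjusted p = 0.09). Between the same groups the 10 HSC/MPP markers summed to 7460 to 9070 raw CPM in Veh and 3190 to 3750 in BRQ mice, and the 10 T/NK cell markers to 44.3 to 81.6 and 182 to 224. Only 4 of the HSC/MPP markers and 1 of the T/NK cell markers had a median above 0, so these sums rested on few genes. The HSC/MPP-like cells themselves had sums of 2320 to 3180 for the HSC/MPP list. The part of both lists in the Itgam result was not tested. Cxcr2 was at 941, 1940 and 1470 CPM in NTB, 2050, 1760 and 1960 in Veh and 1940, 1750 and 1830 in BRQ mice, which overlapped, with log2 differences of 0.33 (SE 0.18) with the tumor and -0.07 (SE 0.15) with BRQ. Selplg was at 661 to 996, 909 to 997 and 764 to 835 CPM, and BRQ against vehicle gave -0.28 (SE 0.15, edgeR adjusted p = 0.318). Ccr2 and Vcam1 did not pass the filter. Ccr2 had no UMI in any NTB mouse, which over their 166586 UMIs allows up to 18 raw CPM, and 16 and 15 UMIs in Veh and BRQ mice.

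Of 46 further genes tested in Il1b-led cells, 3 fell with the tumor, beside 2.2% of all genes: Cd24a, a sialoglycoprotein (-0.97, SE 0.20, edgeR adjusted p = 0.000734), the chemokine Ccl6 (-0.90, SE 0.18, edgeR adjusted p = 0.000515) and the neutrophil collagenase Mmp8 (-0.74, SE 0.18, edgeR adjusted p = 0.00831). With BRQ against vehicle 4 rose and 1 fell, beside 4.92% of all genes. Kit fell by 2.22 (SE 0.26, edgeR adjusted p = 1.87e-11), while Mmp8 rose by 1.10 (SE 0.16, edgeR adjusted p = 1.04e-07) and Rgs18 by 0.94 (SE 0.21, edgeR adjusted p = 0.00108). Kit also fell against NTB (by 2.17, SE 0.44, edgeR adjusted p = 0.00103), the single call there, beside 0.334% of all genes. Kit encodes the protein on which the cells were enriched.

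**Figure D5:**
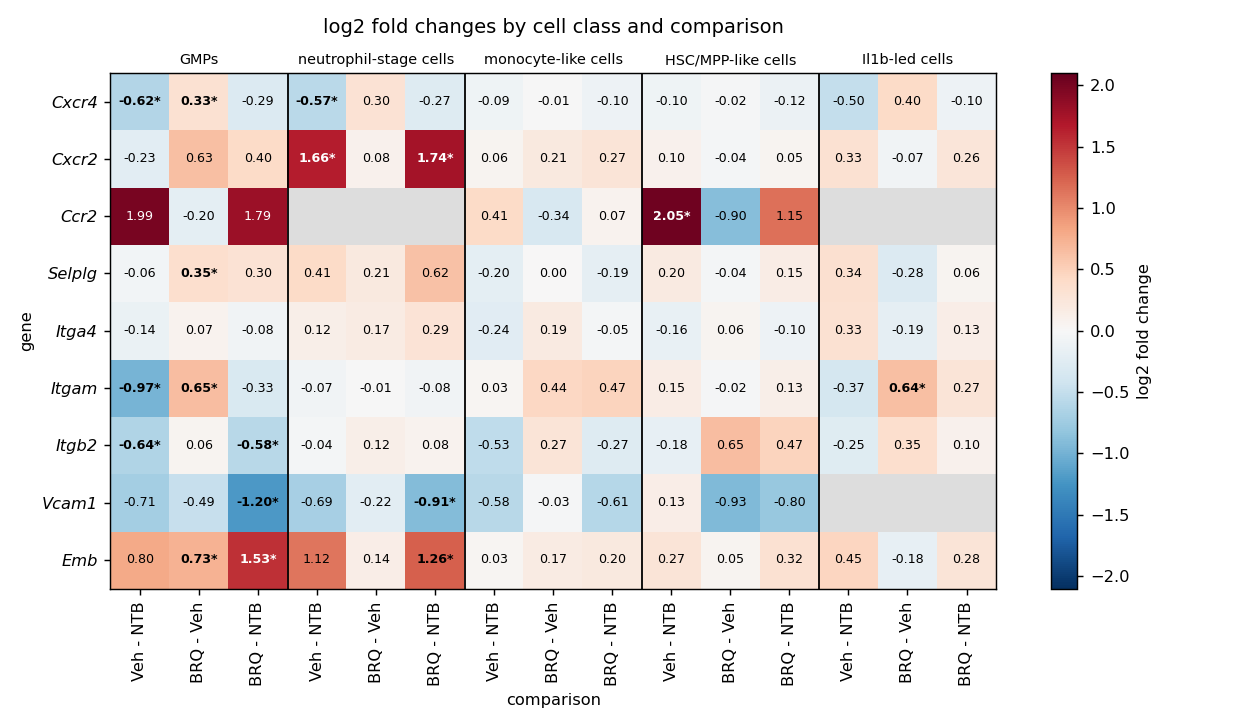
Log2 fold changes of the 9 genes (rows) in 5 cell classes and 3 comparisons (columns); red is higher and blue lower in the group named first, an asterisk marks an edgeR adjusted p under 0.05, and grey marks genes not tested. Calls lie mainly in GMPs and neutrophil-stage cells: Cxcr4 is lower with the tumor in both (-0.62 and -0.57), Itgam and Itgb2 are lower with the tumor in GMPs (-0.97 and -0.64), and Cxcr2 is higher in neutrophil-stage cells (1.66).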

How the data were processed

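Bone marrow of 9 mice was profiled in 3 pools with the 10x 3' kit (v3.1) and hashtag antibodies. The authors deposited unnormalized UMI counts per gene and barcode, made with Cell Ranger 6.0.0 on mm10 per the labels. Seurat is named in the processing notes without a version.

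Hashtags were called with Seurat 5.3.0 (HTODemux, positive quantile 0.99). Barcodes with 500 to 7500 genes and under 15% mitochondrial UMIs were kept. The methods word the limits of 500 and 7500 as transcripts, so reading them as genes is a choice, and UMIs were the alternative. Cells were clustered in Python 3.11.15 with scanpy 1.11.5 and leidenalg 0.10.2 (2000 variable genes without the members, 30 components, 20 neighbours, resolution 0.8), and hashtag doublets were left out. UMI counts were summed per mouse and class and tested in R 4.3.3 with edgeR 4.0.16 (quasi-likelihood test, two-sided, TMM, filterByExpr), all 9 mice in 1 fit per class. P-values were adjusted by Benjamini-Hochberg over all genes tested and called under 0.05. The difference between neutrophil-stage cells and GMPs was an interaction term with the mouse as a block. Totals of 87709 to 16074010 UMIs per mouse in the 4 named classes, and 15029 to 806974 in Il1b-led cells, set the precision, and limits for counts of 0 (3 UMIs) cover counting error only. The fits were tested on simulated data.

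The 9 genes and all lists were chosen with earlier results of these data known. Of the wider list, up to 3 called genes per comparison with the largest absolute log2 fold change and a mean of at least 10 CPM were named; for likeness, the 3 genes with the highest r, of which a gene is not reported here. The pool paired the mice, since each pool held 1 mouse of each group per the labels; deviations of same-pool mice correlated with a median r of 0.088 in GMPs, 0.034 in neutrophil-stage, 0.083 in monocyte-like and 0.014 in HSC/MPP-like cells, against -0.046, -0.022, -0.026 and -0.008 between pools. Alternatives were DESeq2 1.42.0, other normalization, no filter, the replicate block, other hashtag and doublet calls, other class limits and leaving out each mouse. Gene positions come from GENCODE M21 (mm10) and promoters from a table of RefSeq sequences (GRCm38.p6), in which 6 of the 9 genes were matched; promoters of Selplg, Itgb2 and Vcam1 were not analysed here.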

Additional observations from a re-analysis of the deposited data

Results flagged for a closer look

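The 6 results given here are those in which the effect of a condition differed between neutrophil-stage cells and GMPs of the same mice by edgeR's interaction test. Cxcr2 changed more in neutrophil-stage cells by 1.90 on the log2 scale with the tumor (1.66 against -0.23) and by 1.46 in BRQ mice against NTB (1.74 against 0.40). Without NTB mouse 3 neither was called, at 1.34 (edgeR adjusted p = 0.385) and 0.90 (edgeR adjusted p = 0.549). Itgam differed by 0.91 with the tumor (-0.07 against -0.97) and by -0.62 with BRQ against vehicle (-0.01 against 0.65), so that its fall and its rise in GMPs had no counterpart of that size in neutrophil-stage cells. Itgb2 differed by 0.61 with the tumor (-0.04 against -0.64) and by 0.70 in BRQ mice against NTB (0.08 against -0.58). The shares of clusters 3, 4 and 7 moved within these classes, and their part in the differences was not tested.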

How the results depend on the processing

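Of the members' results, Cxcr2 in neutrophil-stage cells stayed called for vehicle and for BRQ against NTB in every alternative run, but its size moved. Apart from leaving out mice, its log2 fold change ran from 1.12 in cluster 1 alone to 3.67 with the Il1b-led cells added for vehicle, and from 1.29 to 3.03 for BRQ mice. The count of members called moved most with the cells taken. For vehicle against NTB, BRQ against vehicle and BRQ against NTB in GMPs the count was 7, 2 and 6 with all cells of the GMP-like clusters (beside 27.8%, 13% and 18.4% of all genes called), 1, 2 and 1 in cluster 0 alone (4.93%, 11.9% and 2.21%), and 0, 0 and 0 with the limits of 500 and 7500 read as UMIs (0.0%, 0.0% and 0.0632%), where Cxcr4 and Selplg with BRQ against vehicle turned to log2 fold changes of -0.13 and -0.070. There vehicle against NTB was -0.23 for Cxcr4, -0.50 for Itgam and -0.02 for Itgb2, Itgam with BRQ against vehicle was 0.43, and BRQ against NTB was -0.62 for Itgb2 and -0.40 for Vcam1. With an Ms4a3 limit of 2.5 the count was 5, 3 and 6 (22.6%, 13% and 15.7%). With no filter it was 6 with the tumor and 6 with BRQ against vehicle in GMPs (7.58% and 8.28%), 4 in neutrophil-stage cells with the tumor (1.4%) and 1 in monocyte-like cells for vehicle against NTB and for BRQ against vehicle (2.64% and 3.66%). With the pool as a replicate block the count was 6, 6 and 5 in GMPs for vehicle against NTB, BRQ against vehicle and BRQ against NTB (16.4%, 20.4% and 11.8%), 4 in neutrophil-stage cells with the tumor (3.28%) and 1 in monocyte-like cells for each of the comparisons with vehicle (4.94% and 8.77%). In neutrophil-stage cells with the tumor the count was 1 with DESeq2 (1.45%), 1 in cluster 1 alone (5.16%) and 1 without Scrublet-marked cells (2.41%). For BRQ against NTB it was 5 in cluster 1 alone (9.35%). Tag ratios gave a count of 1 in neutrophil-stage cells for BRQ against NTB (2.36%), 1 and 1 in monocyte-like cells for the comparisons with vehicle (4.9% and 6.92%), 0 in HSC/MPP-like cells with the tumor (1.04%), 0 in Il1b-led cells with BRQ against vehicle (1.27%) and 1 for the difference between classes in BRQ against NTB (1.25%). In HSC/MPP-like cells with the tumor DESeq2 and the UMI reading gave a count of 0 (0.226% and 0.446%). Adding the Il1b-led cells to the neutrophil-stage cells, chosen after seeing the data like the fits of the Il1b-led cells, gave a count of 6 with the tumor (15.7%) and 5 for BRQ against NTB (6.99%). The cause of these moves was not tested.

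Leaving out each mouse gave a count of 3 to 6 in GMPs with the tumor and 2 to 4 with BRQ against vehicle, 1 to 4 in neutrophil-stage cells with the tumor, 0 to 1 in HSC/MPP-like cells with the tumor, in monocyte-like cells for both comparisons with vehicle and in Il1b-led cells with BRQ, and 1 to 3, 0 to 1 and 1 to 2 for the differences between classes. Depth limits Ccr2 outside monocyte-like cells, where NTB mice gave 6 UMIs in GMPs and 9 in HSC/MPP-like cells.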
